A study of Mus musculus with 4 samples.

Results

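The semaphorin, plexin and neuropilin genes were read on 4 one-colour arrays of mouse T helper cells, 2 from miR-155 knockout (KO) cells and 2 from wild-type (WT) cells. Members were all non-control probes whose gene name in the scanner output starts with Sema and a digit or with Plxn, or is Nrp1 or Nrp2. This gave 45 of 55681 probes, for 31 of 26680 gene names: 20 semaphorins, 9 plexins and 2 neuropilins. The KO arrays hold RNA of miR-155-/- CD4+ T cells and the WT arrays RNA of miR-155+/+ CD4+ T cells. Per the labels, cells of both genotypes were cultured with antibodies to CD3e and CD28, TGFb and IL-6, and were then sorted as CD4+ cells positive for a red fluorescent IL-17F reporter. TGFb with IL-6 is the cytokine pair that steers CD4+ cells to the T helper 17 (Th17) fate, and the sort limits both genotypes to cells with reporter signal. The sources used here do not give strain, age, sex, the number of animals or the extent of the deletion in the animal. The design text calls the arrays biological replicates, but animals and cultures are not named per array, so part of the spread behind each p may be technical.

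Semaphorins are secreted or membrane-bound proteins that share a sema domain, and plexins are their main receptors. The plexin cytoplasmic tail holds a GTPase-activating domain for small Ras-family GTPases, and its activation alters integrin adhesion, the actin skeleton and migration. Most secreted class 3 semaphorins bind neuropilins, which pair with plexins to signal and which also bind vascular endothelial growth factors. Semaphorins of classes 4, 6 and 7 are anchored in the membrane and mostly bind plexins directly. In the immune system these proteins are known for T cell co-stimulation, contacts between T cells and dendritic cells, and thymocyte and dendritic cell migration. The deleted miRNA acts in activated lymphocytes by pairing of its seed with target mRNAs. Its mature sequence is shown as the molecule that separates the genotypes, with the seed, bases 2 to 8, in capitals (RefSeq, GRCm38.p6, chr16:84714143-84714165, plus strand).
mmu-miR-155-5p: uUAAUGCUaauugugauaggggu
The DNA complement of that seed, AGCATTA, was looked for in the sense-strand probe sequences of 60 bases. It stood in 0 of the 45 member probes and in 203 of all 55681 probes (0.365%), which says nothing about the rest of the transcripts.

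Values are log2 of the array's processed signal minus that array's 75th percentile over non-control probes, so that 0 is the 75th percentile, and a difference is KO minus WT on this log2 scale. A gene was tested if, in KO or in WT cells, both arrays read a probe of it well above background, and its passing probe with the highest mean then represented it. Limma was fitted to all 19151 genes that passed, with Benjamini-Hochberg adjustment over all of them. No gene passed an adjusted p of 0.05 (0.0% of genes tested), the smallest adjusted p was 0.255, and 2169 genes had an unadjusted limma p under 0.05. The share of spots well above background was 63.5% to 69.8% on the KO arrays, against 68.1% to 69.5% on the WT arrays, and 0 spots were saturated. KO array 1 had the least even fitted surface, with an SD of 0.157 against 0.0542 on KO array 2 and 0.0498 to 0.0557 on the WT arrays. All arrays lay on 1 slide, with the KO arrays in row 2 and the WT arrays in row 1, so effects of genotype and of slide row cannot be told apart. The array holds no probe named for miR-155, so the deletion was not checked on a probe of its own.

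Of the 31 member genes, 27 passed the filter. Plxna4, Sema3a, Sema3d and Sema5a did not. No member passed the adjusted threshold. At an unadjusted limma p under 0.05, 4 members were higher in KO cells, Sema3c, Plxnb3, Plxnd1 and Nrp1, where 7.23% of all genes tested were higher at that level. Another 2 members, Nrp2 and Sema7a, were lower in KO cells, where 4.1% of all genes tested were lower. In either direction 11.3% of all genes tested were at that level. Sema3c, Sema3g and Nrp1 passed the filter only through the KO arrays, where they are high. Where all 4 arrays had to be well above background, 23 members were tested. Of them, 2, Plxnb3 and Plxnd1, were higher and 3 were lower at that level. Of all 17920 genes tested with that filter, 1420 were higher and 767 were lower. The KO and WT arrays did not overlap for 18 of the 27 members, against 47.8% of all genes tested: KO was above WT for 11 members and below it for 7, against 25.4% and 22.3% of all genes. The median difference of the tested members was 0.12, with a range of -1.22 to 2.24, and that of all genes tested was 0.02. The difference was above 0 for 19 of the 27 members (70.4%, against 52.4% of all genes). For 16 members it lay within 0.3 of 0, against 13043 of all 19151 genes tested. Scaling by the median of each array took 0.16 from every difference, which left 12 of 27 members above 0 and put the median of all genes at -0.14.

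**Figure D1:**
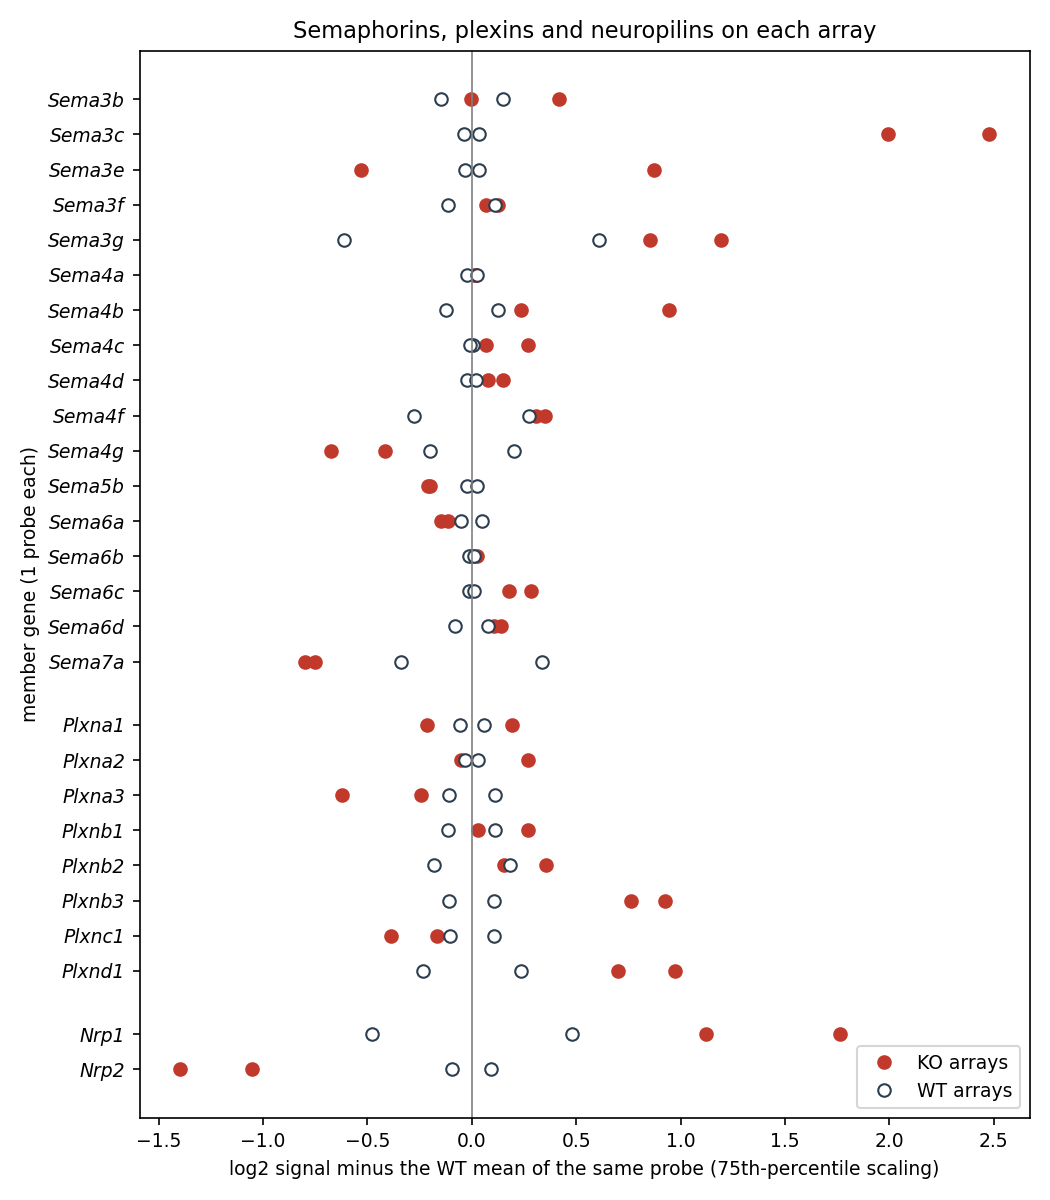
Log2 signal of the 27 tested member genes on each of the 4 arrays, as the difference from the WT mean of the same probe (filled red, KO arrays; open, WT arrays; 1 probe per gene). Sema3c and Nrp1 lie farthest to the right on the KO arrays and Nrp2 farthest to the left, while Sema4a and Sema6b show all arrays together near 0.

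Sema3c, a secreted class 3 semaphorin that signals through neuropilins and guides neural crest cells into the developing heart, had the largest difference of the members. Its signal was -3.63 and -4.11 on the KO arrays, against -6.14 and -6.07 on the WT arrays. It was well above background on both KO arrays and on neither WT array, so that the level in WT cells is only bounded. The probe was measured against the lowest signal well above background on each WT array, or its own signal where that was higher. By that measure Sema3c was at least about 3.93-fold higher in KO cells (limma difference 2.24 ± 0.21 SE, adjusted p = 0.255). The bound is approximate: on WT array 1 a signal as low as -6.83 was well above background, while Sema3c at -6.14 was not. A second Sema3c probe, which lies upstream on the same strand, was not well above background on any array and was at the floor of the scanner software on 3 of 4. The start of each probe is shown because the probes of 1 gene were read so differently: the first 30 of 60 bases, both on the plus strand of mm9.
Sema3c A_55_P2143025, chr5:17235981-17236040: ccctgtgtagagaaagcaaactagatgtag
Sema3c A_52_P87839, chr5:17234078-17234137: acgtaaagtcaagagtgactcataaagagc
The higher Sema3c value therefore rests on 1 probe. With normexp background correction, which lifts dim signals, its difference was 0.69.

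No class 3 gene passed the adjusted threshold, and none of the other tested class 3 genes had an unadjusted limma p under 0.05. Sema3g, whose protein binds Nrp2, had signals of -3.94 and -4.28 on the KO arrays, against -5.75 and -4.53 on the WT arrays, where only 1 array was well above background. Its difference was 1.03 ± 0.45 (SE, limma adjusted p = 0.477), and a second probe gave -0.23. Sema3e, the ligand of plexin D1, was well above background on 1 KO array and on both WT arrays. Its signals were -4.08 and -5.48 on the KO arrays, against -4.99 and -4.92 on the WT arrays. The KO arrays lay on either side of the WT arrays, and the sign of the difference of 0.17 ± 0.50 depended on which KO array was used. Sema3b differed by 0.21 and Sema3f, a ligand of Nrp2, by 0.10. The signs of Sema3b and Sema3f also depended on single arrays: Sema3b was at -0.0026 without KO array 2 and Sema3f at -0.012 without WT array 1.

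Among the membrane-bound semaphorins, Sema7a had the largest difference. Sema7a is tethered by a lipid anchor, is carried by activated T cells, and binds plexin C1 and the integrin of alpha1 and beta1 chains on myeloid cells. Its signal was 2.81 and 2.86 on the KO arrays, against 3.27 and 3.95 on the WT arrays (probe at mm9 chr9:57810607-57810666). The KO arrays were close to each other and below both WT arrays, which lay farther from each other. The difference was -0.77 ± 0.26 (SE), a 1.71-fold lower signal in KO cells, with a limma adjusted p of 0.420. WT array 2 set much of that size: without it the difference was -0.44, and without WT array 1 it was -1.11. With all 4 arrays but no filter on dim probes, the unadjusted limma p was 0.0519, no longer under 0.05.

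The class 4 semaphorins known for T cell co-stimulation had nearly the same signal in both genotypes. Sema4a, a membrane protein of dendritic cells and activated T cells, had signals of 3.21 and 3.20 on the KO arrays, against 3.16 and 3.21 on the WT arrays. Its difference was 0.02, with a 95% confidence interval of -0.30 to 0.33. Sema4d, also called CD100 and carried by resting and activated T cells, had signals of 5.70 and 5.77 on the KO arrays, against 5.60 and 5.65 on the WT arrays. Its difference was 0.11 (95% confidence interval -0.21 to 0.44) and turned to -0.05 with median scaling. Of the other class 4 genes, Sema4b differed by 0.59, Sema4c, a ligand of plexin B2, by 0.17, and Sema4f by 0.33. Sema4g differed by -0.55 ± 0.20 (SE), just outside an unadjusted p of 0.05 (limma adjusted p = 0.442), and came under it in 8 of 16 alternative settings. The class 6 semaphorins, ligands of plexin A receptors, were all within 0.3 of 0 on their representing probe: Sema6a at -0.13, Sema6b at 0.01, Sema6c at 0.23 and Sema6d at 0.12. Sema5b, which repels neurites through plexins A1 and A3 in mouse retina, differed by -0.21.

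Turning to the receptors, Plxnd1 had a higher signal in KO cells on both of its probes. Plexin D1 is the receptor of Sema3e, and in the mouse thymus it guides maturing thymocytes. Its brighter probe (mm9 chr6:115904829-115904888, minus strand) had signals of 3.26 and 2.99 on the KO arrays, against 2.52 and 2.06 on the WT arrays. The difference was 0.84 ± 0.22 (SE), or 1.79-fold, with a limma adjusted p of 0.355. The second probe had signals of -0.47 and -0.30 on the KO arrays, against -0.82 and -1.10 on the WT arrays, a difference of 0.58 ± 0.16 (SE, limma adjusted p = 0.397 with every probe fitted). On each probe both KO arrays were above both WT arrays. Without KO array 1 the difference of the brighter probe was 0.70 (limma adjusted p = 0.50), and without WT array 2 it was 0.60 (limma adjusted p = 0.480), neither of them still under an unadjusted p of 0.05.

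All 3 plexin B genes had differences above 0, and Plxnb3 had the largest. Plexin B3 is a receptor of Sema5a. Plxnb3 had signals of -2.59 and -2.76 on the KO arrays, against -3.41 and -3.63 on the WT arrays (mm9 chrX:71017572-71017631). The arrays of each genotype were closer to each other than to those of the other genotype, and the difference was 0.84 ± 0.15 (SE, 1.80-fold, limma adjusted p = 0.297). Sema5a itself did not pass the filter: its probe was well above background on 1 KO array and on no WT array. Plxnb2, a receptor of class 4 semaphorins, had signals of 1.69 and 1.89 on the KO arrays, against 1.72 and 1.36 on the WT arrays. Those ranges overlap, and the difference was 0.26 (95% confidence interval -0.25 to 0.76). Plxnb1, the receptor of Sema4d outside the immune system, differed by 0.15 and turned to -0.0094 with median and -0.012 with quantile scaling.

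**Figure D2:**
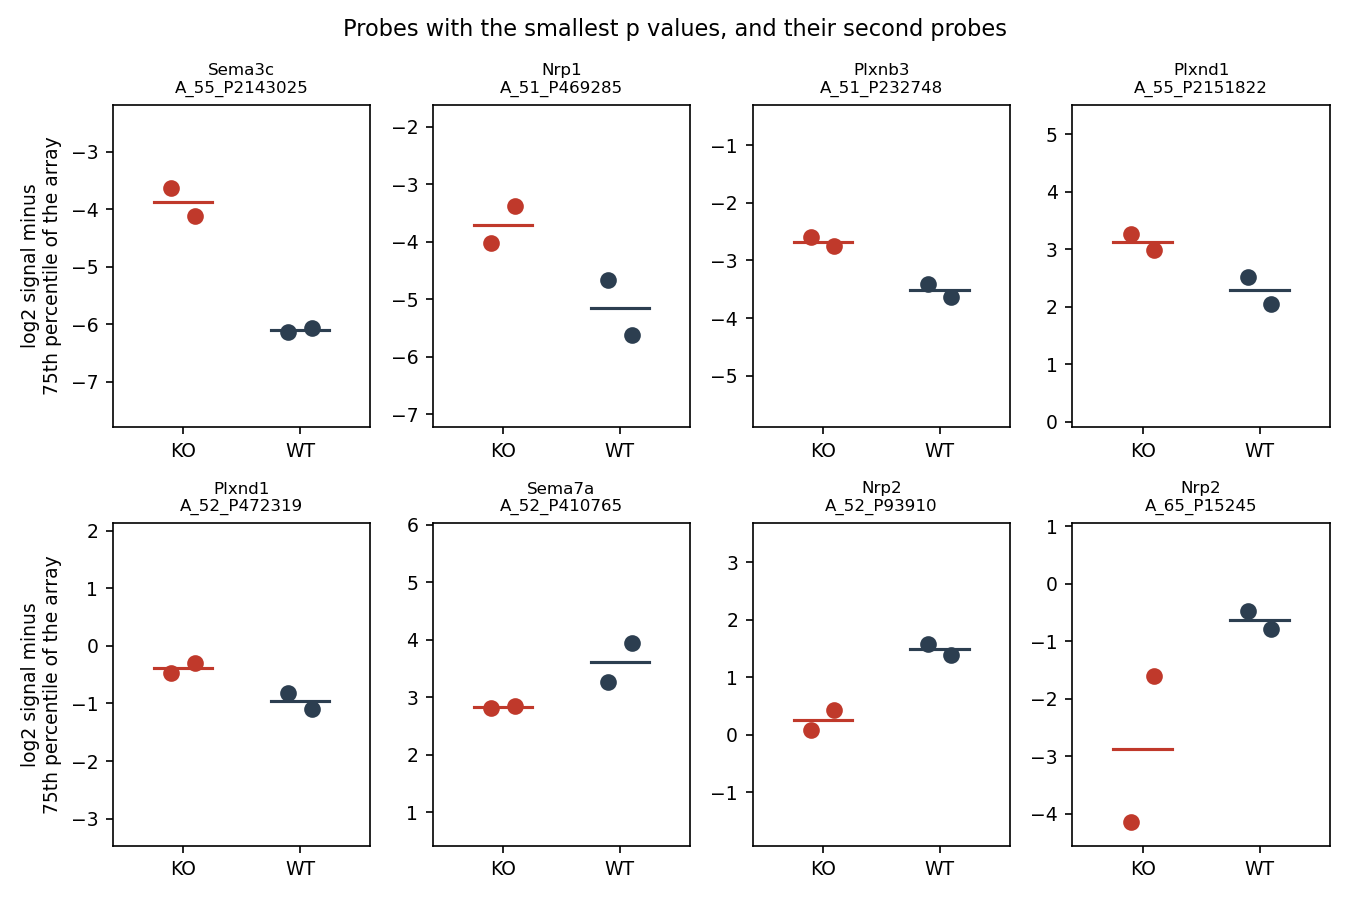
Log2 signal minus the 75th percentile of the array, by genotype (KO left, WT right; points are arrays, lines are means), for the probes of the 6 member genes with an unadjusted p under 0.05 and the passing second probes of Plxnd1 and Nrp2. Each panel spans the same number of log2 units. KO arrays lie above WT arrays for Sema3c, Nrp1, Plxnb3 and both Plxnd1 probes, and below them for Sema7a and both Nrp2 probes.

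Plexins of the A and C groups had differences of either sign, the largest for Plxna3. Plxna1, which pairs with Trem2 and its adaptor in mouse dendritic cells, had signals of 0.53 and 0.12 on the KO arrays, against 0.40 and 0.28 on the WT arrays. The KO arrays enclosed the WT arrays, and the difference was -0.01 (95% confidence interval -0.52 to 0.50). Plxna3, which serves Sema3f signalling with Nrp2, differed by -0.43 ± 0.19 (SE, limma adjusted p = 0.475), with both KO arrays below both WT arrays. Its unadjusted limma p came under 0.05 with normexp, median scaling, the deposited table and KO array 1 corrected. Plxnc1, the plexin that binds Sema7a, had signals of -1.77 and -2.0 on the KO arrays, against -1.50 and -1.72 on the WT arrays. Its difference was -0.28 ± 0.16 (SE), its second probe gave 0.36, and with KO array 1 divided by its own fitted surface the first probe gave 0.0098. No direction can be given for Plxnc1.

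The Plxna2 value needs care, because its probes lie on different chromosomes. The probe with a RefSeq transcript of Plxna2 is on chromosome 1 and was at the floor on all 4 arrays. The probe that passed carries the Plxna2 name through an Ensembl transcript and is placed on chromosome 14 in the file. It had signals of -0.38 and -0.70 on the KO arrays, against -0.68 and -0.62 on the WT arrays, a difference of 0.11. The first 30 of 60 bases of each are given, since only the first reports the RefSeq gene.
Plxna2 A_51_P229602, mm9 chr1:196642958-196643017, plus strand: catgtacctattgtaaatatgaaactccta
Plxna2 A_66_P138999, mm9 chr14:108739666-108739725, plus strand: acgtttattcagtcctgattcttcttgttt
The signal listed for Plxna2 is therefore uncertain as a measure of plexin A2.

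The neuropilins differed in opposite directions. Nrp2, which binds Sema3f, Sema3c and vascular endothelial growth factor C, had signals of 0.09 and 0.43 on the KO arrays, against 1.58 and 1.39 on the WT arrays. Both KO arrays were below both WT arrays, by more than the arrays of either genotype lay apart. The difference was -1.22 ± 0.18 (SE), a 2.34-fold lower signal in KO cells (limma adjusted p = 0.281), and its unadjusted p stayed under 0.05 in all 16 alternative settings. A second probe, listed in the file under a different transcript accession of the gene, had signals of -4.13 and -1.61 on the KO arrays, against -0.47 and -0.79 on the WT arrays. It lies in a corner block at the right edge of the array, and its difference was -2.24 ± 0.89 (SE). On KO array 1 as a whole, the fitted surface was divided out at only 0.799% of the spots where this could be read. On the other arrays it was divided out at 100%. Divided by that surface, the difference was -1.12, close to the -1.25 of the first probe under the same correction. Both probes, shown by the first 30 of their 60 bases on the plus strand of mm9, were lower in KO cells.
Nrp2 A_52_P93910, chr1:62865129-62865188: tgagccagatcacgggaactcgagagcttt
Nrp2 A_65_P15245, chr1:62843298-62843357: ggtttctgttggctgtcattgtcatctcca

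Nrp1, the other neuropilin, binds Sema3a and vascular endothelial growth factor A, and in mice it marks regulatory T cells of thymic origin. Its signal was -4.02 and -3.38 on the KO arrays, against -4.66 and -5.62 on the WT arrays (mm9 chr8:131026650-131026709). It was well above background on both KO arrays and on 1 WT array. The difference was 1.44 ± 0.42 (SE), with a limma adjusted p of 0.380. Without WT array 2 the difference was 0.96 (limma adjusted p = 0.460), and without KO array 2 it was 1.12 (limma adjusted p = 0.509), and the unadjusted p was no longer under 0.05 in either case. Beside it, 7 of 8 listed regulatory T cell markers had differences above 0, against 52.4% of all genes tested. Of these, Ikzf2 at 0.85 and Itgae at 1.25 were higher at an unadjusted limma p under 0.05, against 7.23% of all genes tested. Tnfrsf18 at 0.12 and Lrrc32 at 0.06 were smaller than the 0.16 that median scaling takes from every difference. Il2ra at 0.37, Gpr83 at 0.26 and Ctla4 at -0.03 had KO and WT arrays that overlapped. Foxp3, the defining factor of that lineage, had signals of -0.82 and -0.82 on the KO arrays, against -0.97 and -1.11 on the WT arrays. Its difference was 0.22 (limma adjusted p = 0.533). The summed linear signal of the list, in units of the array's 75th percentile, was 314 to 387 on the KO arrays and 285 to 308 on the WT arrays. Il2ra and Tnfrsf18 made up 86.3% to 90.3% of it on each array. The sum of 387 was that of KO array 1, where Il2ra alone made up 53.5%. Il2ra had signals of 7.69 and 7.08 on the KO arrays, against 6.90 and 7.12 on the WT arrays. The part of such cells in the Nrp1 value was not tested, and in bulk RNA more cells of a type and more RNA per cell cannot be told apart.

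Probes of the same gene were compared for the 7 member genes with 2 passing probes. The sign was the same for 4 of them, Nrp2, Plxnd1, Sema6c and Sema6d. The second Sema6c probe had a larger difference than the first, at 0.66 ± 0.19 (SE, limma adjusted p = 0.398). The sign was opposite for Plxnc1, Sema3g and Sema4f. The second Sema4f probe lies in a corner block and gave -1.23, or -0.64 once KO array 1 was divided by its surface.

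**Figure D3:**
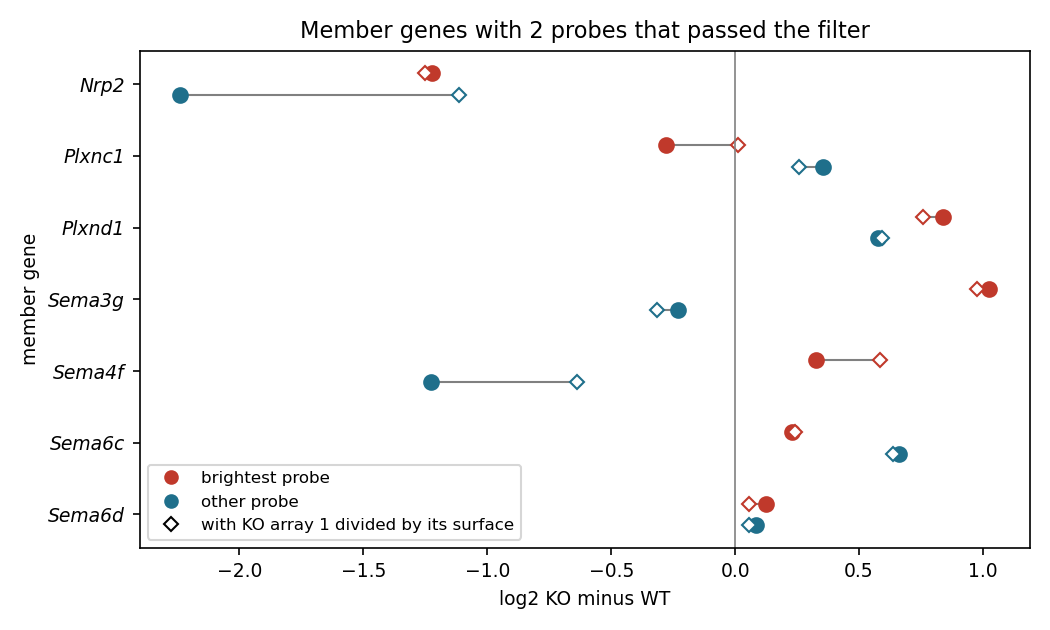
KO minus WT difference on the log2 scale for the 7 member genes with 2 passing probes (red, the probe with the higher mean, which represents the gene; blue, the other probe; diamonds, the same probe with KO array 1 divided by its fitted surface). The differences of the Nrp2 probes are -1.22 and -2.24 as measured, and lie at -1.25 and -1.12 after the division.

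The other genes of the pathway were taken from a list of 53, of which 51 were tested. Of these, 24 had differences above 0 and 27 below, with a median of -0.03 and a range of -1.23 to 1.94. At an unadjusted limma p under 0.05, 3 were higher and 1 was lower in KO cells, 7.84% of the list against 11.3% of all genes tested, and none passed the adjusted threshold. Itga1, the alpha1 chain of the Sema7a-binding integrin, had signals of -4.32 and -3.79 on the KO arrays, against -5.98 and -6.02 on the WT arrays. Neither WT array was well above background for that Itga1 probe. Measured as for Sema3c, the probe was at least about 3.26-fold higher in KO cells (limma adjusted p = 0.255). A second probe was well above background on 1 KO array only, and its KO and WT arrays overlapped. It gave 0.52, or at least about 1.13-fold by the same measure. Flt1, a receptor of vascular endothelial growth factor A that joins neuropilin complexes, differed by 1.47 ± 0.20 (SE, limma adjusted p = 0.271), with 0.80 and 0.45 on its other probes. Mst1r, a receptor kinase that associates with B plexins, differed by 1.33 ± 0.26 (SE, limma adjusted p = 0.314). Tiam1, an exchange factor that activates Rac, differed by -0.66 ± 0.13 (SE, limma adjusted p = 0.320).

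On the cytoplasmic side of the pathway, differences lay within 0.3 of 0 for 18 of 27 plexin effectors. The same held for 7 of 8 collapsin response mediator and Mical genes, and for 13043 of all 19151 genes tested. Of the 27 GTPases, exchange factors, kinases and other effectors, 10 had differences above 0 and 17 below, and Tiam1 was the only one with an unadjusted limma p under 0.05. The lowest of all partners was Farp2, named here after its value was seen, at -1.23, with signals of -4.85 and -1.79 on the KO arrays, against -2.91 and -1.27 on the WT arrays, in a corner block. Of the 8 collapsin response mediator and Mical genes, whose proteins carry semaphorin signals to the cytoskeleton, 2 were above 0 and 6 below, with a median of -0.23, and none had an unadjusted limma p under 0.05. The 4 semaphorin receptors outside the plexins, Cd72, Timd2, Itga1 and Itgb1, all had differences above 0, although Timd2 varied from -1.05 to 1.38 between the WT arrays. Among 4 tested ligands that neuropilins share with other pathways, 2 were above 0 and 2 below.

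**Figure D4:**
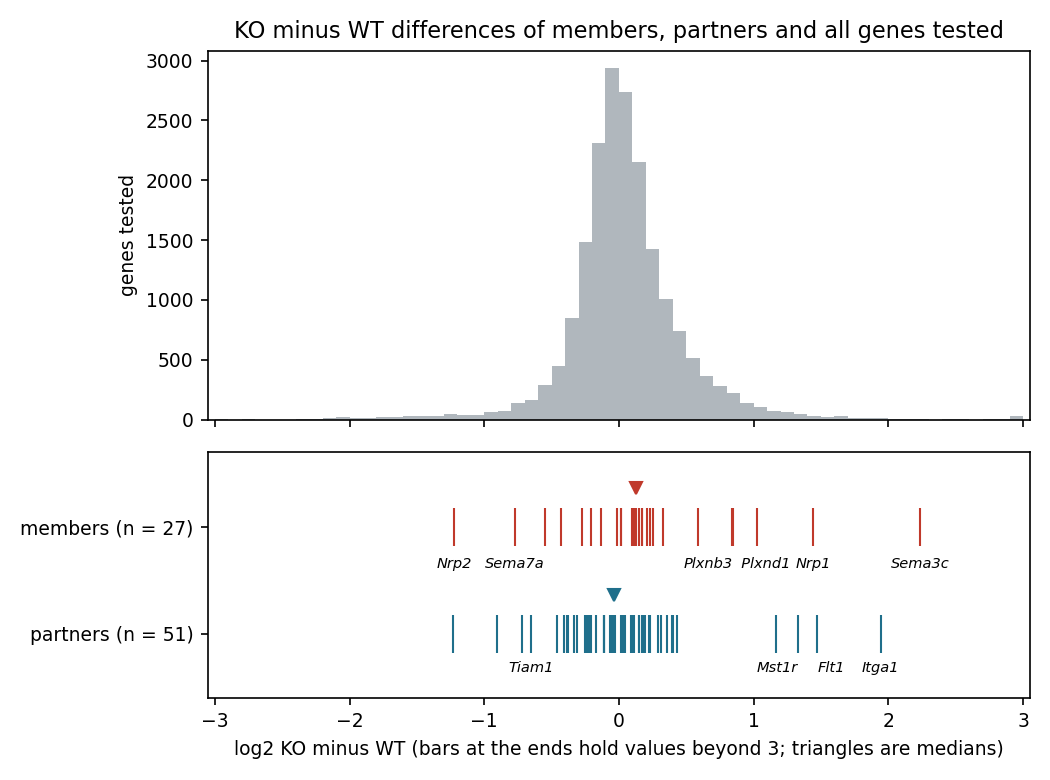
KO minus WT differences on the log2 scale for all 19151 genes tested (histogram, genes per bin) and, below, for the 27 members and the 51 signalling partners (each bar is a gene, triangles are medians, and names mark genes with an unadjusted p under 0.05). Members and partners lie within the range of all genes, with medians of 0.12 and -0.03.

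Markers of the sorted cells and of other cell types were read beside these values. Cd3e and Cd4 differed by -0.06 and -0.16, while Il17f differed by -2.01, Il17a by -3.17, Il23r by -3.11 and Ccr6 by -2.40, each at an unadjusted limma p under 0.05. Of 7 tested CD8, NK and gamma-delta markers, 3 were higher at that level (Cd8a at 1.30, Klra8 at 1.66 and Fcer1g at 0.94), against 7.23% of all genes tested. The other 4 were below 0 (Cd8b1 at -0.13, Klrd1 at -0.47, Klrk1 at -0.13 and Sox13 at -0.08). Klrd1 gave most of the list's signal, with sums of 13.6 to 16.9 on the KO arrays and 17.2 to 20.6 on the WT arrays. Ncr1 and Klrb1c did not pass the filter. Of 12 myeloid and dendritic cell markers, 9 had differences above 0, and Flt3 was higher at that level (0.60), while Mpeg1 was at -1.24, Cd14 at -0.67 and Fcgr3 at -0.57. Their sums were 192 to 210 on the KO arrays and 180 to 183 on the WT arrays, of which Siglech alone made up 89.5% to 90.6%. That Siglech probe, 1 of 3, read 7.33 to 7.57 across the arrays, above the 6.86 to 7.07 of Cd3d. These sums are therefore uncertain as a measure of myeloid and dendritic cells, and what the probe reads was not tested. Of 7 tested B cell markers, Cd79b was higher (1.16) and Ebf1 and Cd22 were lower (-0.97 and -0.60), and Ms4a1 did not pass. The B cell sums were 4.65 to 5.10 on the KO arrays, of which Cd79b made up 66.1% to 69.1%. On the WT arrays they were 3.21 to 4.21, of which Cd79b made up 36.9% to 43.7%. Of 4 tested endothelial and stromal markers, all were above 0 and Pecam1 was higher (0.49), while Cdh5, Tek, Pdgfra and Pdgfrb did not pass. The sums of this list were 2.63 to 2.84 on the KO arrays and 1.87 to 2.12 on the WT arrays. Pecam1 alone made up 83.8% to 87.8% of the sum on each array. The part of these cell types, and of the lower Th17 transcripts, in the member values was not tested.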

How the data were processed

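Total RNA was labelled with Cy3 and hybridised to Agilent arrays, per the labels' protocols. For each array the authors deposited the output of Agilent Feature Extraction 10.5.1.1, per the submitters' processing notes. The processed signal in it is an intensity on a linear scale, background-subtracted and detrended, and the multiplicative surface is a linear ratio, per the file headers. Division by that surface was found at 0.799% of the spots of KO array 1 where it could be read and at 100% on the others. The authors also deposited a table of log2 values, which equals log2 processed signal plus 1 constant per array, within 0.001, and was used as an alternative only. Probe positions are on mm9, per the file headers, and exon or UTR classes were not used here.

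Control and outlier spots were left out and spots of a probe were averaged. Genes were renamed through RefSeq tables by accession (26762 probes), symbol (3819) or synonym (639), while 24461 kept the file's name, as did all 45 members. Regions of lincRNA (16194 probes) and 3543 unnamed probes were left out of the fit. Limma 3.58.1 in R 4.3.3 was fitted with 2 residual and 2.17 prior degrees of freedom. The code was also run on simulated data with independent noise on each array. Such data do not cover the uneven surface of KO array 1 or the slide rows. With 2 arrays against 2, an exact two-sided permutation test of 1 value cannot go below 0.333. Values on every array were given for members with an unadjusted p under 0.05, for those well above background in fewer arrays of 1 genotype, and for 8 members known from immune cells. The members, lists, corner blocks and tests were chosen with earlier results of these data known. The labels do not say what the replicate numbers in the titles share. Arrays numbered 1 lay in slide column 2 and arrays numbered 2 in slide column 4, per the file headers, and the deviations of same-numbered arrays from their group means correlated at -0.0011. Correlations over the 19151 genes tested were 0.988 between the KO arrays, 0.989 between the WT arrays and 0.981 to 0.989 between genotypes. Another 2 probes that current names would place in these families were left out, as the file's gene names do not. The 16 alternatives changed the background correction, scaling, filter, choice of probe, prior, surface, corner blocks, replicates or replicate block. Some of the listed markers of the sorted cells are not reported here.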

Additional observations from a re-analysis of the deposited data

How the results depend on the processing

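No member passed an adjusted p of 0.05 under any of the 16 alternatives. Over all genes, 30 passed without WT replicate 1 and 0 under each of the others, so the range without 1 array was 0 to 30. The unadjusted limma call of Sema3c (15 of 15 alternatives that tested it), Nrp2 and Plxnb3 (16 of 16 each) was kept throughout, that of Plxnd1 in 14 of 16, that of Nrp1 in 12 of 15 and that of Sema7a in 12 of 16. Members lower at an unadjusted limma p under 0.05 numbered 2 in the report, 4 with normexp and 4 with quantile scaling. They numbered 5 with median scaling and with the deposited table, and 1 with no filter. All genes lower at that level numbered 785 of 19151 in the report, 1150 with normexp and 1104 with quantile scaling. They numbered 2212 with median scaling and with the deposited table, and 618 of 26661 with no filter. Members higher numbered 4 in the report, 6 with normexp, 3 with quantile scaling, and 5 with every probe fitted or the mean of probes. They numbered 2 with only probes well above background on all 4 arrays, which leaves out Sema3c and Nrp1. All genes higher numbered 1384 in the report, 3082 with normexp, 1177 with quantile scaling and 1383 with the mean of probes. The all-array filter gave 1420 of 17920 genes, and every probe fitted gave 1781 of 25477 probes. Partners lower numbered 1 in the report, 4 with normexp, and 8 with median scaling and the deposited table. They numbered 3 with quantile scaling, KO array 1 corrected or the replicate block. The all-array filter, the intensity trend and corner blocks left out each gave 2. All genes lower numbered 1040 with KO array 1 corrected, 511 with the replicate block and 1012 with the intensity trend. They numbered 767 with the all-array filter and 785 of 18441 with corner blocks left out. Partners higher numbered 3 in the report and 2 with the all-array filter, which leaves out Itga1. They numbered 4 with no filter, every probe fitted or KO array 1 corrected. All genes higher numbered 1685 of 26661 with no filter and 1298 with KO array 1 corrected. Median scaling and the deposited table turned Plxna2 to -0.050, Plxnb1 to -0.0094, Sema3f to -0.062, Sema4a to -0.15, Sema4d to -0.047, Sema6b to -0.15 and Sema6d to -0.036. Normexp turned Sema4a to -3.1e-05, Sema5b to 0.095 and Sema6a to 0.023, quantile scaling turned Plxna1 to 0.0066 and Plxnb1 to -0.012, the mean of probes turned Plxnc1 to 0.039 and Sema4f to -0.45, and KO array 1 corrected turned Plxnc1 to 0.0098. Without 1 array, Plxna1 ranged from -0.21 to 0.19, Plxna2 from -0.050 to 0.27, Sema3b from -0.0026 to 0.42, Sema3e from -0.53 to 0.87, Sema3f from -0.012 to 0.21 and Sema4a from -0.0091 to 0.040. Median scaling and the deposited table shift every difference by -0.16, so any value between 0 and that size turns, and the mean of probes adds the second probe. The cause of the turns under normexp and quantile scaling was not tested. Of genes with an unadjusted p under 0.05, 63.8% were higher in KO cells, against 24.9% with median scaling and 51.6% with quantile scaling. The replicate block changed no member's call at that level. Signal over background limits Sema3c, Sema3e, Sema3g and Nrp1, and the number of arrays limits every p. The kept calls of Sema3c and Nrp1 are no separate support. Both passed the filter only through the KO arrays, and the all-array filter, which asks for WT signal too, left them out. Median scaling and the deposited table gave the same differences but are counted as separate alternatives.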
